A study of Caenorhabditis elegans with 2 samples.

Results

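The regions described here are 291 of the 30000 candidate regions listed from both replicates of an ETS-4::GFP ChIP-seq experiment pooled. They were chosen by 2 measured properties of the pooled list: their -log10 q value (a significance score corrected for multiple testing) equals the highest in the list, 3.44, and their coordinates are not in the authors' final list of 1102 regions, thresholded on the irreproducible discovery rate (IDR). IDR compares how 2 replicates rank the same regions. The 291 regions are called ceiling regions from here on, and the 1102 are called IDR regions. The reference sets were the IDR regions and the 291 pooled regions with the highest signal whose q value was below the ceiling. The authors name the pooled list peaks and background, the input for IDR. Shares over all 30000 pooled regions, or over all others below the ceiling, therefore include background and not binding sites alone.

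All values come from 1 group, whole Caenorhabditis elegans of strain RAF1713 in 2 biological replicates. The animals were young adults of mixed sex, 73 h old, synchronised by starving L1 larvae hatched after bleaching. RAF1713 carries the transgene rrrSi400 on chromosome II, in which the ets-4 promoter (Pets-4) drives an ets-4-GFP fusion that ends in the 3'UTR of ets-4, beside the rescue marker unc-119(+). It also carries the unc-119(ed3) allele on chromosome III. It is 1 transgenic line, in which the tagged protein is expressed under the gene's own promoter. Sonicated chromatin was precipitated with anti-GFP according to the description in the labels, whose antibody field names ets-4 instead. A control entered the authors' calls, and a mock or untagged precipitate was not analysed here. Whole animals were used, so no value can be assigned to a tissue.

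ETS-4 is a transcription factor of the ETS family, proteins whose winged helix-turn-helix domain contacts a GGAA or GGAT core. In C. elegans it acts in fat metabolism and ageing, and its mRNA is a target of the RNase REGE-1. GATA factors such as ELT-2, which read sequences such as TGATAA, are the dominant regulators of intestinal genes in this animal. In ChIP-seq a summit is the position of highest enrichment within a called region.

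The sequences below show the ETS-type words CCGGAA or CCGGAT and the GATA-type word TGATAA at the summits of ceiling regions. They are 30 bases of the RefSeq WBcel235 genome, which is build ce11, read 5′ to 3′ on the strand that carries the word, and the capitals mark the word. The first 4 are ETS-type matches, shown because they carry the core that ETS factors read. The other 6 are TGATAA matches, the word most frequent at these summits among the 8 searched.
K10D2.5: cttcggccccgcCCGGAAaagctgcagcaa
cam-1: ttgaaagagacgCCGGAAgatcatagagca
srj-29: tacattcatcacCCGGAAaaaaagagtgaa
srv-1: atttgcgtaatcCCGGATttaaaacgatta
acs-14: atcgtggccaacTGATAAcatcaattccgt
ifo-1: ggccgcaatcacTGATAAcagatgccattt
cts-1: tgatggaggtaaTGATAAaacacagccgcc
hsp-1: gtattttttattTGATAAtgttaagaattc
nhr-178: taggggggaaggTGATAAagttttgataga
ceh-60: accacgttcaacTGATAAaagaacggttct
The K10D2.5 sequence is chrIII:5172686-5172715 on the minus strand, at the shared 5′ ends of K10D2.5, emb-1 and prp-19. The cam-1 sequence is chrII:9301261-9301290 on the plus strand, in an intron of cam-1, a receptor tyrosine kinase of the ROR family. The srj-29 sequence is chrV:16075348-16075377 on the plus strand, upstream of F14H3.12 and of the chemoreceptor gene srj-29. The srv-1 sequence is chrIII:6852484-6852513 on the minus strand, in a coding exon of the chemoreceptor gene srv-1. The acs-14 sequence is chrV:9507113-9507142 (plus strand) and the ifo-1 sequence is chrIV:7325908-7325937 (minus strand). The cts-1 sequence is chrIII:10217039-10217068, the hsp-1 sequence chrIV:17278519-17278548, the nhr-178 sequence chrV:1608014-1608043 and the ceh-60 sequence chrX:6530760-6530789, all on the plus strand. In these 6 regions the lowest coordinate of TGATAA lay between 1 bp (cts-1) and 37 bp (nhr-178) from the summit.

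The ceiling regions occupied ranks 1103 to 1393 of the pooled list when it was ordered by the signal value, the authors' measure of enrichment. Their signal ran from 73.5 to 79.4 (median 76.2). The IDR regions held ranks 1 to 1102, with signals of 79.4 to 429.9 (median 102.4). The regions below the ceiling held ranks 1394 to 1684, with signals of 68.9 to 73.5 (median 71.1). The rule names the q value and the IDR list, not the signal, so the ranks of the ceiling and IDR regions do not follow from it. The IDR regions filled ranks 1 to 1102 without a gap, so their list equals a cut on the pooled signal at that rank. Comparisons with the IDR regions are therefore also comparisons with regions of higher pooled signal. Absence from the IDR list does not by itself show that a region disagreed between replicates. The values are given as a description. At the upper edge, the last IDR region, in an intron near C26C6.8, had a signal of 79.4237 and the first ceiling region, near acs-14, 79.4215. At the lower edge, the last ceiling region, nearest to nlp-6 on X, had a signal of 73.530, and the first region below the ceiling, upstream of D1054.3, had 73.470 with a -log10 q value of 2.97. Every ceiling region was 370 bp wide.

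**Figure D1:**
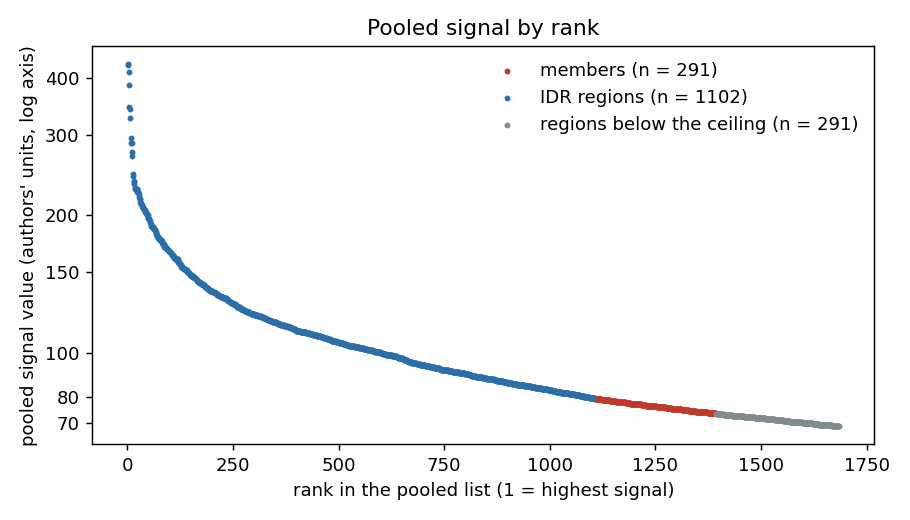
Pooled signal value (authors' units, log axis) of each region against its rank in the pooled list, for ceiling regions (labelled members), IDR regions and regions below the ceiling. The 3 sets follow each other without overlap, and the ceiling regions fill the narrow band from 79.4 down to 73.5.

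Most ceiling regions stood high in 1 replicate or in neither, and few in both, as did the regions below the ceiling. Each region was given the best rank of any region of a replicate's own list that overlapped it by at least 1 bp, and the 1102 strongest regions of each replicate served as a common limit. In replicate 1 the ceiling regions ranked between 113 and 23915 (median 2076), with signals of 13.3 to 68.4 (median 31.1). In replicate 2 they ranked between 246 and 10454 (median 1462), with signals of 23.7 to 79.0 (median 45.6). Of the 291 ceiling regions, 7 (2.41%) were among the 1102 strongest of both replicates, 70 of replicate 1 only, 89 of replicate 2 only and 125 (42.96%) of neither. Among the IDR regions, 577 (52.4%) were among the strongest of both replicates and 54 of neither. Among the regions below the ceiling, 7 (2.41%) were among the strongest of both and 184 (63.2%) of neither. Over all 30000 pooled regions, 690 (2.30%) were among the strongest of both. No ceiling region was at the q ceiling of both replicates' lists, against 374 IDR regions, 3 regions below the ceiling and 433 of all 30000 pooled regions. The replicates' own ceilings were unlike in size, with 1046 regions in replicate 1 and 521 in replicate 2. They held 69 and 2 of the ceiling regions, so at most 2 could have been at both, and the absence says little about agreement. The pooled signal was made from the reads of both replicates, so these ranks are tied to the narrow band of pooled signal that the ceiling regions fill. The counts carry no test and are given as a description.

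Within the ceiling regions the replicates' signals ran in opposite directions, with a Spearman correlation of -0.72 over 290 regions. In the IDR regions it was 0.281 (1099 regions) and in the regions below the ceiling -0.71 (286 regions). These regions share a narrow range of a pooled signal made from both replicates, so the negative sign follows from their choice and is no finding. Replicate 2 ranked the region higher in 174 ceiling regions and replicate 1 in 116. The ranks differed by more than 10-fold in 32 ceiling regions, of which 26 stood higher in replicate 2 and 6 in replicate 1. By the same measure 83 IDR regions stood higher in replicate 2 and 31 in replicate 1, and below the ceiling 23 and 11. At any difference, replicate 2 ranked 619 IDR regions higher and replicate 1 ranked 475 higher, and below the ceiling 147 and 139. Wide gaps, and the lean to replicate 2 among them, were thus present in the reference sets as well. At any difference the lean was present in the IDR regions but slight below the ceiling. Of the 14336 pooled regions found in both replicates' lists, replicate 2 ranked 7275 higher and replicate 1 ranked 7056 higher. By more than 10-fold these counts were 383 and 349. The differences between the sets were not tested. The depth of either library is not known from the lists, and its part in this was not tested.

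**Figure D2:**
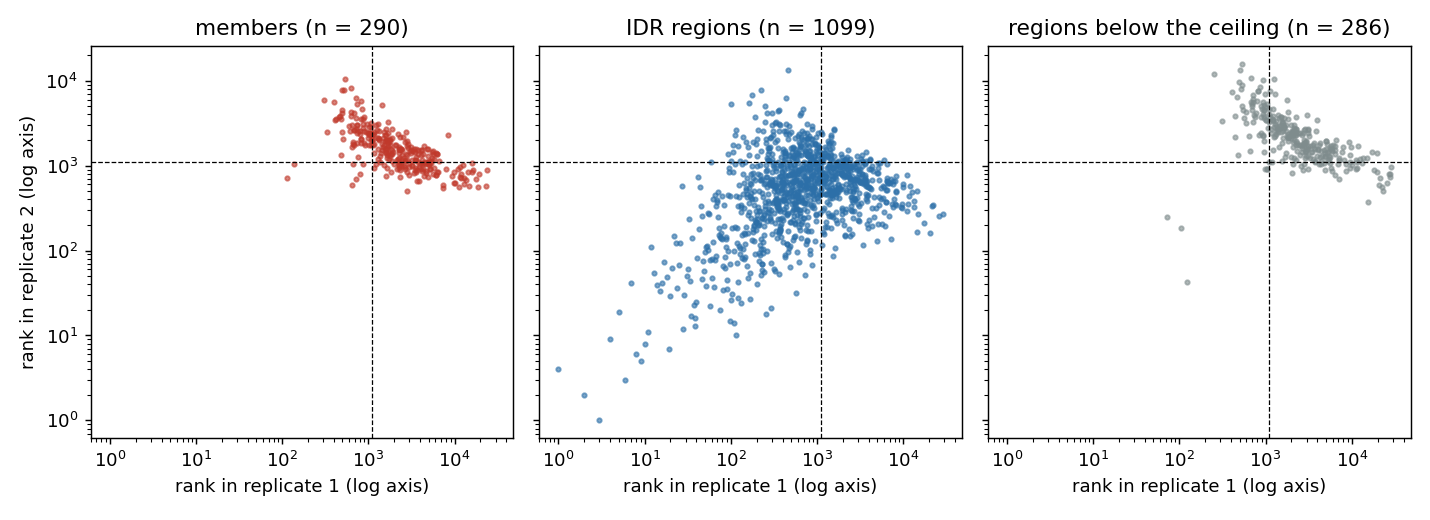
Rank in replicate 1 against rank in replicate 2 (log axes) for the regions found in both lists, with 1 panel each for ceiling regions (members), IDR regions and regions below the ceiling; dashed lines mark rank 1102. The ceiling regions form a falling band, with few points in the lower left corner, where 577 IDR regions lie.

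The 10 ceiling regions with the highest pooled signal (79.2 to 79.4) were spread over promoters, exons, introns and intergenic sequence. After acs-14 came a coding exon of Y71H10B.1 (ranks 2280 in replicate 1 and 1025 in replicate 2), the intergenic region beside cel-mir-52 (872 and 1053) and an intergenic region 1263 bp upstream of F41H10.2 (4981 and 743). Introns of nhr-35, a nuclear hormone receptor gene (1170 and 2473), of inso-1 (2303 and 726) and of ifo-1, an organiser of intestinal intermediate filaments (16538 and 883), followed. The remaining 3 lay at the 5′ UTR of cif-1 (2249 and 940), in a coding exon of aagr-3, an acid alpha-glucosidase relative (804 and 2351), and 4041 bp upstream of zhp-1 (3208 and 991). Of these 10 regions, replicate 2 ranked 7 higher and replicate 1 ranked 3 higher.

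The regions that ranked best in the worse of the 2 replicates show what close agreement looked like at this signal. The region upstream of fil-2, a lipase gene induced by fasting, lay at chrV:6278212-6278581 and had a signal of 42.9 in replicate 1, 61.3 in replicate 2 and 77.3 in the pool, at ranks 649 and 599. The region at F25H2.12 and tct-1, beside a snoRNA gene, lay at chrI:10569097-10569466 and ranked 719 and 700, with signals of 41.8 and 58.7. In an intron of epg-9, an autophagy gene, the region at chrIV:2602652-2603021 ranked 797 and 800, with signals of 40.7 and 56.1. The region 701 bp upstream of sptl-3, which encodes a serine palmitoyltransferase subunit for sphingolipid synthesis, ranked 664 and 1047. These 4 regions stood among the strongest of both replicates. The next best, an intron of the La-related gene larp-1 (1160 and 945), the promoter of Y34B4A.2 (1225 and 1045) and an exon of ubl-1 (754 and 1259), each had 1 rank beyond 1102.

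The other 3 of the 7 lay beside stronger binding. They were in a coding exon of C42D8.9 on X (ranks 113 and 723), in an intron of F14F7.5 on III (136 and 1037), and next to cel-mir-52, a microRNA of the mir-51 family, on IV (872 and 1053). Their summits were 129 bp, 72 bp and 47 bp from the nearest IDR region. In each of these 3 the replicate region that overlapped the ceiling region also overlapped the IDR region, so its rank is not that of the ceiling region alone. Without them, 4 of 288 ceiling regions were among the strongest of both replicates.

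The regions that stood highest in replicate 2 relative to replicate 1 were also named by rule. The region upstream of acs-14, an acyl-CoA synthetase family gene, had a signal of 16.5 in replicate 1 and 62.3 in replicate 2, at ranks 14898 and 569, although it headed the ceiling regions in the pool with 79.4. The coding exon of obr-3, a gene related to oxysterol-binding proteins, had signals of 15 and 62.6, at ranks 18662 and 562. The intergenic region nearest to npr-28 ranked 23046 and 583, that upstream of ppm-1.A ranked 23915 and 894, and that upstream of imp-3 ranked 17554 and 687. All 5 were among the 1102 strongest of replicate 2 and none of replicate 1. One ceiling region, at chrV:13646204-13646573 and nearest to H37A05.4, overlapped no region of replicate 1's list and had the highest replicate 2 signal of the 291, 79.0 at rank 246.

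The opposite pattern was less extreme in rank. The region upstream of C09D4.4, in coding sequence of the ribosomal protein gene rpl-19, had signals of 45.5 in replicate 1 and 23.7 in replicate 2, at ranks 530 and 10454. The region upstream of K10D2.5 ranked 490 and 7833, and that in a coding exon of the histone demethylase gene jmjd-2 ranked 516 and 7698. An intergenic region 3826 bp upstream of atf-2, a bZIP factor gene, ranked 309 and 5921, and an intron of H18N23.2 ranked 404 and 5593. All 5 were among the 1102 strongest of replicate 1 and none of replicate 2.

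The ceiling regions lay in exons more often than the IDR regions did. A summit was classed first as promoter (1000 bp upstream to 200 bp downstream of a protein-coding 5′ end), and if not, as exon, intron or intergenic. Of the 291 summits, 63 lay in exons, 21.6% (95% Wilson interval 17.3 to 26.7), against 8.98% of IDR regions (7.43 to 10.8). The difference of 12.7 percentage points (interval 7.95 to 18) passed the two-sided Fisher's exact test with Benjamini-Hochberg adjustment over 8 location tests (adjusted p = 2.06e-07). The regions below the ceiling had 22.3% in exons, a difference of -0.687 points (-7.41 to 6.04, Fisher adjusted p = 0.920), which did not pass. It did pass in 2 alternatives, by -14.8 points against all other pooled regions below the ceiling (21.6% against 36.4%, Fisher adjusted p = 3.09e-07) and by -8.93 points in replicate 2's own list, without replicate 1 (15.5% against 24.4%, Fisher adjusted p = 0.0372). Of the 63 exonic summits, 56 were in coding sequence, 4 in 3′ UTRs and 3 in 5′ UTRs. In the list of all 30000 pooled regions 35.3% were exonic. Intervals and tests here count regions and cover counting error only, and neighbouring regions are not independent.

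The exon excess over the stronger regions was present in each replicate's own list but differed in level. At ranks 1103 to 1393 of replicate 1's list 31.6% of summits were exonic, against 18.8% in its 1102 strongest (Fisher's exact test, adjusted p = 3.48e-05). At the same ranks of replicate 2's list the share was 15.5%, against 9.26% (Fisher's exact test, adjusted p = 0.0286). Among the exonic ceiling regions, replicate 1 gave the higher rank in 31 and replicate 2 in 32, whereas among the promoter ceiling regions these counts were 35 and 63. In the IDR regions they were 49 and 50 for exons and 192 and 238 for promoters. Below the ceiling they were 45 and 20 for exons and 38 and 62 for promoters, so the contrast was not particular to the ceiling regions. The median ranks of exonic ceiling regions were 1658 in replicate 1 and 1674 in replicate 2, and those of promoter ones 2224 and 1470. Exonic summits were also higher in GC content, with a mean of 47.7% against 45.0% in promoters. Whether GC content or the libraries took part in the exon share was not tested.

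The other classes did not pass the test against the IDR regions or the 291 regions below the ceiling. Promoters held 98 ceiling regions, 33.7% (28.5 to 39.3), against 39.5% of IDR regions (difference -5.80 points, -11.7 to 0.494, Fisher adjusted p = 0.208) and 35.7% of regions below the ceiling (-2.06, -9.74 to 5.65, Fisher adjusted p = 0.758). The difference turned round and passed against all other pooled regions below the ceiling, at 10.4 points (33.7% against 23.3%, Fisher adjusted p = 1.79e-04), and 24% of all 30000 pooled regions were in promoters. With a narrower promoter, 500 bp upstream to 100 bp downstream, the difference from the IDR regions was -8.86 points and passed (Fisher adjusted p = 0.00825). Introns held 63 ceiling regions, 21.6%, against 24.6% and 27.1% in the IDR regions and the regions below the ceiling (Fisher adjusted p = 0.422 and 0.295). Intergenic sequence held 67, 23.0%, against 27% of IDR regions (Fisher adjusted p = 0.323). That difference passed without replicate 2, at -8.31 points in replicate 1's own list (Fisher adjusted p = 0.00978). The intergenic share was 14.8% below the ceiling, and the difference of 8.25 points (1.88 to 14.6) missed the threshold (Fisher adjusted p = 0.0585) but passed with the narrower promoter, at 11 points (Fisher adjusted p = 0.00825), and against all other pooled regions below the ceiling, at 5.99 points (Fisher adjusted p = 0.0192).

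**Figure D3:**
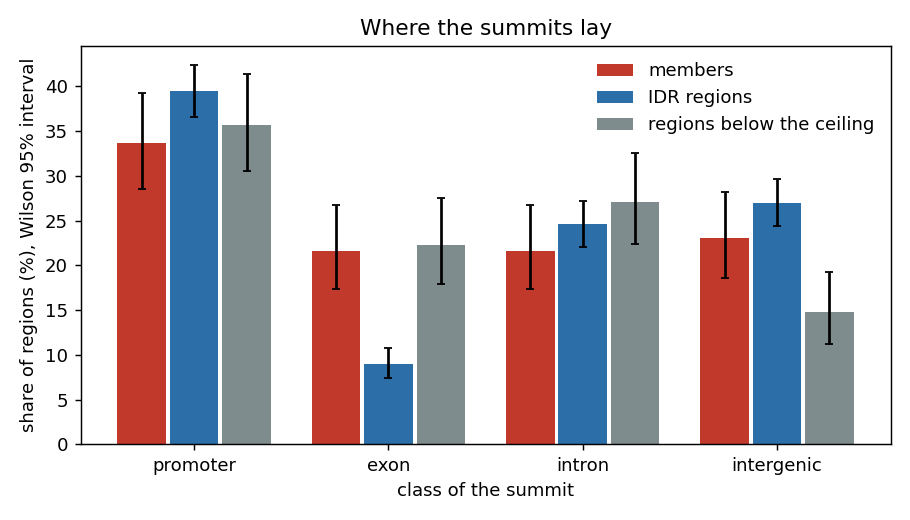
Share of summits (%) in each class for ceiling regions (members), IDR regions and regions below the ceiling; bars are shares and error bars 95% Wilson intervals. The exon share is 21.6% in ceiling regions, 8.98% in IDR regions and 22.3% below the ceiling, and the interval of the IDR regions lies below both others.

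Ceiling summits lay at a median of 1246 bp from a 5′ end of a protein-coding gene, against 1100.5 bp for IDR regions and 944 bp below the ceiling. The 500 bp upstream of a 5′ end held 19.6% of ceiling summits, 28.0% of IDR summits and 19.9% of those below the ceiling. From 0 to 500 bp downstream the shares were 7.22%, 6.62% and 12.7%. Of the ceiling regions, 97 (33.3%) were over 2000 bp from any 5′ end, against 32.4% of IDR regions and 30.6% below the ceiling. Over 5000 bp away were 24 ceiling regions (8.25%), against 9.80% of IDR regions and 11.3% below the ceiling. Over all pooled regions these shares were 39.2% and 12.4%. These distances are given as a description.

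**Figure D4:**
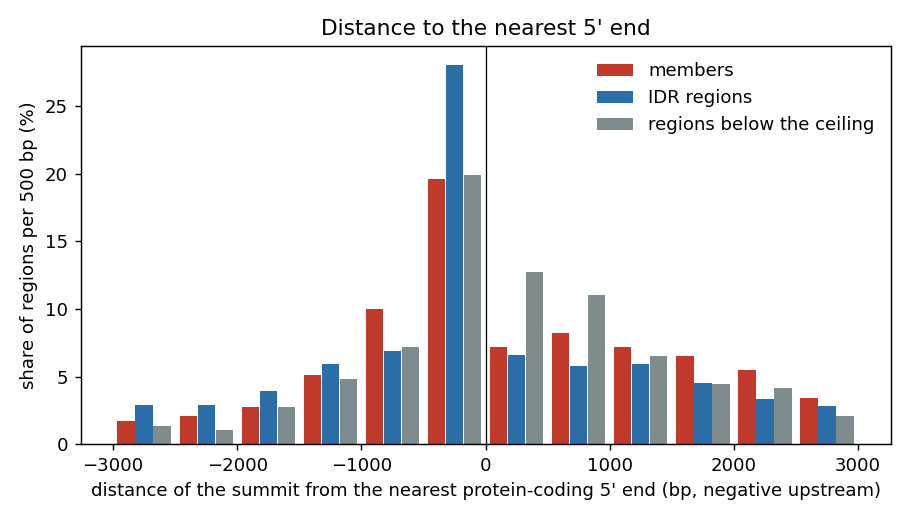
Share of regions (%) per 500 bp of distance from the nearest 5′ end of a protein-coding gene (negative values are upstream), for ceiling regions (members), IDR regions and regions below the ceiling. The bin just upstream of the 5′ end is the fullest in each set, with 28.0% of IDR summits and 19.6% of ceiling summits.

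Small RNA genes (tRNA, snoRNA, snRNA, rRNA or miRNA) were neighbours of 35 ceiling summits within 300 bp, 12% (8.78 to 16.3). Of these 24 were beside tRNA genes, 10 beside snoRNA genes and 1 beside cel-mir-52. The share was 15.7% among IDR regions (difference -3.67 points, -7.63 to 1.03, Fisher adjusted p = 0.366) and 11.3% below the ceiling (0.687, -4.59 to 5.97, adjusted p = 1.00), and 2.79% over the whole pooled list. Against all other pooled regions below the ceiling the difference was 9.83 points and passed (Fisher adjusted p = 7.73e-15). The snoRNA neighbours included ceiling regions at genes for the ribosomal proteins ubl-1 and rps-13 and at the chaperone genes dnj-20 and hsp-1. The ceiling region beside a tRNA gene nearest to T26C11.8 on X ranked 12774 in replicate 1 and 720 in replicate 2, and that beside a tRNA gene pair nearest to ZK154.6 on X ranked 606 and 2575.

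The X chromosome held 62 ceiling regions, 21.3%, against 25.6% of IDR regions and 19.9% below the ceiling (Fisher adjusted p = 0.366 and 1.00). An IDR region lay within 1000 bp of the summit of 19 ceiling regions, 6.53%, and of 19 regions below the ceiling (Fisher adjusted p = 1.00). That comparison passed without replicate 1, at -6.53 points (Fisher adjusted p = 0.0236), and against all other pooled regions below the ceiling, at 3.19 points (Fisher adjusted p = 0.0193). The median distance to an IDR region was 18136 bp, against 19223 bp below the ceiling and 29935 bp over all pooled regions. Of the ceiling regions, 3 overlapped an IDR region. Among the ceiling regions, 2 neighbouring pairs of summits lay within 1000 bp of each other, and no such count is given for the other sets.

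At the summits, TGATAA was frequent and ETS-type words were not. Within 50 bp to each side of the summit, on either strand, TGATAA was found in 68 ceiling regions (23.4%, 18.9 to 28.6), of the type shown for acs-14 and cts-1. A window of the same length centred 300 bp away held it in 19 of them (6.53%), a difference of 16.8 points (exact McNemar test, Benjamini-Hochberg adjusted over 8 words, p = 4.48e-07). The difference passed in all 4 alternatives, between 7.90 and 18.9 points. TGATAA was in 27% of IDR summits and 21% of those below the ceiling, and neither difference passed (Fisher adjusted p = 0.879 for both). Without replicate 1, in replicate 2's own list, ranks 1103 to 1393 held it in 18.6% against 27.6% of the strongest 1102, a difference of -9.03 points that passed (Fisher adjusted p = 0.0243). Against all other pooled regions below the ceiling the difference of 13.7 points passed too (Fisher adjusted p = 1.91e-10). It was in 10.5% of all pooled regions. The mean GC content was 45.7% at ceiling summits and 36.9% in the windows beside them, and its part was not tested.

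The share of TGATAA varied with the class of the ceiling region. It was in 32 of 98 promoter summits (32.7%), 16 of 63 intronic (25.4%), 16 of 67 intergenic (23.9%) and 4 of 63 exonic ones (6.35%). Among ceiling regions with TGATAA, replicate 2 gave the higher rank in 46 and replicate 1 in 22. These counts were not tested.

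The ETS-type words were no more frequent at the summits than beside them. CCGGAA, of the type shown for K10D2.5 and cam-1, was in 8 ceiling summits (2.75%) and in 14 windows beside them (4.81%, adjusted p = 0.351, exact McNemar test). CCGGAT was in 5 summits and 6 windows (exact adjusted p = 1.00), and CAGGAA in 12 and 18 (adjusted p = 0.374). At IDR summits the shares were 3.72% for CCGGAA, 1.63% for CCGGAT and 4.08% for CAGGAA, and in all pooled regions 5.06%, 2.89% and 5.70%. In all, 25 of 291 ceiling summits held at least 1 of the 3 ETS-type words, 84 held one of them or TGATAA, and 162 held none of the 8 words searched. A window without these letters says nothing of the factor's presence.

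The 4 other words were GTAAACA (a forkhead word), CACGTG (a bHLH word), TGACTCA (a bZIP word) and a GA repeat, GAGAGA. This repeat was in 39 ceiling summits (13.4%), against 21.4% of IDR summits, a difference of -8.01 points (-12.3 to -3.04) that passed Fisher's exact test (adjusted p = 0.0339, 16 word tests). The call was lost in 5 of 7 alternatives, with differences between -10.3 and -2.62 points over the 7. GAGAGA was more frequent at the ceiling summits than in the windows beside them (13 windows, 4.47%, adjusted p = 6.26e-04, exact McNemar test), but not when the window on the other side was used (4.12 points, adjusted p = 0.432). TGACTCA was in 0 of 291 ceiling summits, which allows a share of up to 1.30% (Wilson), and in 1.72% of IDR summits (Fisher adjusted p = 0.158). GTAAACA was in 8 and CACGTG in 13 ceiling summits, and neither passed a test against the other sets.

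Of 19973 protein-coding genes, 120 (0.601%) had a ceiling summit in the promoter, and 258 (1.29%) in the promoter or the gene body. None of the 120 (0%) was among the 518 genes with an IDR summit in the promoter, which are 2.59% of all protein-coding genes. Of the 125 genes with a region below the ceiling in the promoter, 4 (3.20%) were among the 518. Of the 98 promoter regions, 78 were at 1 gene, 18 at 2 genes and 2 at 3 or more. In the 36 gene lists examined, 32 genes had a ceiling summit in the promoter, at 30 distinct regions. None of these 30 regions was among the 1102 strongest of both replicates, 7 were of replicate 1 only, 8 of replicate 2 only and 15 of neither. TGATAA was in 14 of the 30, beside 32 of all 98 promoter ceiling regions (32.7%), which was not tested.

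**Figure D5:**
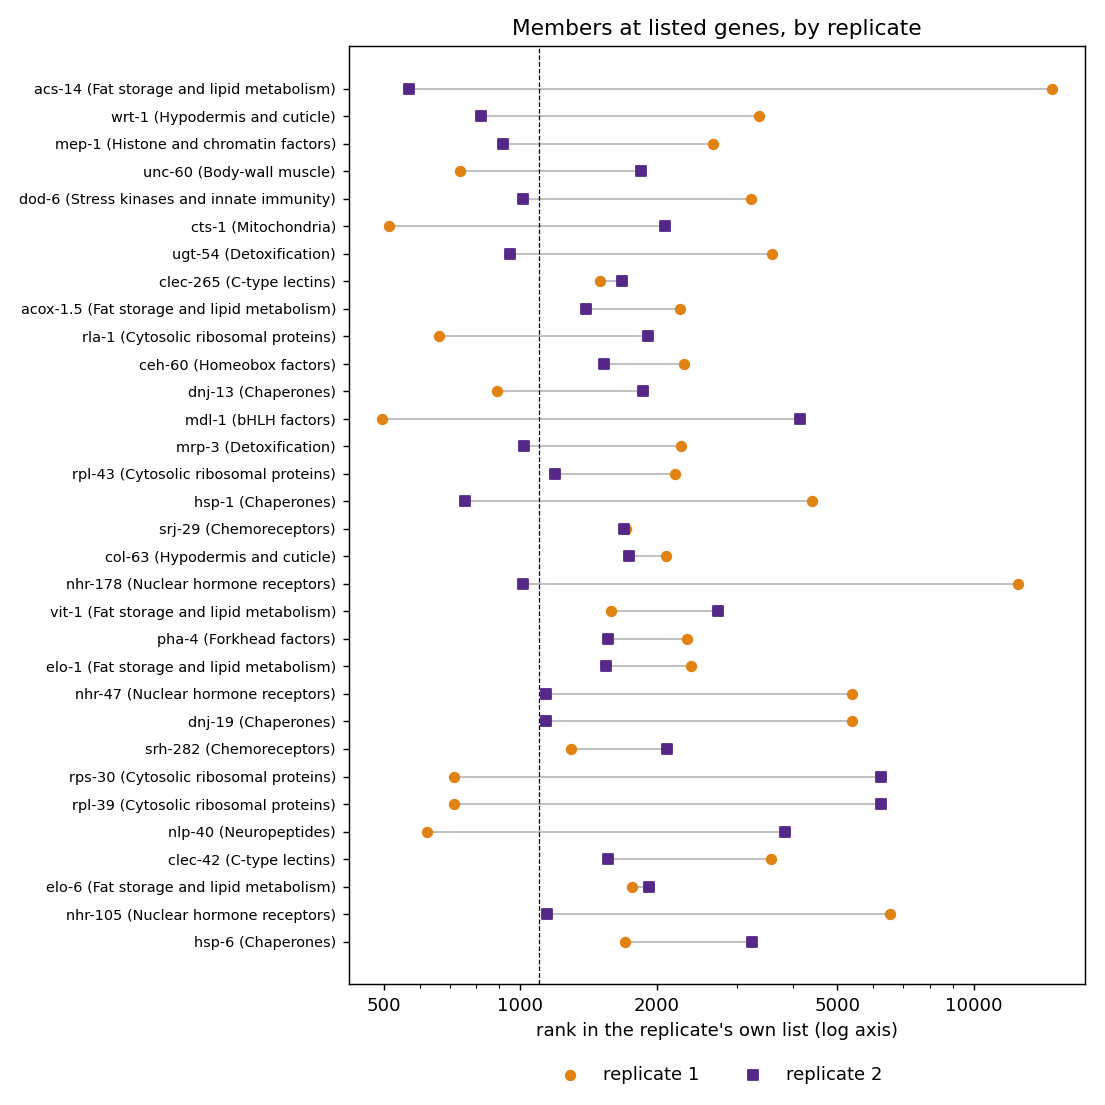
Rank in replicate 1 (circles) and replicate 2 (squares) of the ceiling region in the promoter of each of 32 listed genes (log axis), with the list in brackets and genes ordered from top to bottom by pooled signal; the dashed line marks rank 1102. For no gene do both symbols lie left of the line, beside 7 of all 291 ceiling regions. The widest gap is at acs-14, at ranks 14898 and 569.

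Lipid genes carried a ceiling region in 5 of 110 promoters (4.55%) and 7 of 110 promoters or bodies (6.36%), beside 0.601% and 1.29% of all genes. An IDR region was in 5 of 110 promoters (4.55%), beside 2.59% of all genes. For this list and those below, no difference from the shares of all genes was tested. The acs-14 region has been described. Both fatty acid elongase genes elo-1 and elo-6 had theirs 250 bp upstream. The elo-1 region had signals of 29.9 in replicate 1 and 44.8 in replicate 2 (ranks 2385 and 1549), and the elo-6 region had 32.3 and 41.7 (ranks 1766 and 1926). The acyl-CoA oxidase gene acox-1.5 had signals of 30.4 and 46.2, 140 bp upstream of its 5′ end. The yolk protein gene vit-1 had signals of 33.2 and 37.0, 79 bp upstream, on X. The regions of elo-1, elo-6, acox-1.5 and vit-1 were thus closer between replicates than that of acs-14, and none of the 4 was among the strongest of either replicate. In coding exons lay the regions of acdh-1, an acyl-CoA dehydrogenase (ranks 1093 and 2020), and of dhs-3, a lipid droplet dehydrogenase (2907 and 1792).

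Sphingolipid synthesis appeared at 2 genes, which were picked after their values were seen. Beside the sptl-3 promoter region, sptl-2, which encodes another serine palmitoyltransferase subunit, had 2 intronic ceiling regions, at 955 bp and 1939 bp from its 5′ end. They had pooled signals of 75.3 and 77.1, ranks of 3507 and 4118 in replicate 1 and ranks of 888 and 922 in replicate 2, and both held TGATAA. In all, 7 genes had 2 ceiling regions each, counting promoter, body and nearest 5′ end: sptl-2, hsp-1, skn-1, vig-1, ifbp-1, H37A05.4 and W07G4.5.

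Chaperone genes had a ceiling region in 4 of 60 promoters (hsp-1, hsp-6, dnj-13 and dnj-19), 6.67% beside 0.601% of all genes. With cct-5, dnj-20 and hsp-90 it was 7 of 60 promoters or bodies, 11.7% beside 1.29% of all genes. An IDR region was in 5 of 60 promoters (8.33%), beside 2.59% of all genes. The Hsc70 gene hsp-1 had one 405 bp upstream (signals 25.1 in replicate 1 and 57.5 in replicate 2) and another in a coding exon beside a snoRNA gene (26 and 59.6). Both hsp-1 regions were among the strongest of replicate 2 and ranked 4413 and 3906 in replicate 1. The mitochondrial Hsp70 gene hsp-6 had signals of 32.7 and 35.0, at ranks 1701 and 3245. The region of dnj-13, a J-domain cochaperone gene, stood higher in replicate 1 (rank 887) than in replicate 2 (rank 1867). The region of dnj-19 was shared with nhr-47, at ranks 5404 and 1138. The hsp-90 region, in a coding exon, ranked 2827 and 509.

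Cytosolic ribosomal protein genes had 4 of 80 promoters with a ceiling region (rla-1, rpl-39, rpl-43 and rps-30) and 8 of 80 promoters or bodies, beside 14 of 80 promoters with an IDR region. A single region served rpl-39 and rps-30, with signals of 41.8 in replicate 1 and 28.2 in replicate 2, at ranks 715 and 6245. The rla-1 region ranked 662 and 1916, and the rpl-43 region, shared with Y48B6A.1, ranked 2199 and 1194. The other 4 genes, rpl-12, rpl-19, rps-13 and ubl-1, had one in the body. The summits in rpl-12, rpl-19 and rps-13 were also in the promoters of their neighbours tag-115, C09D4.4 and nfx-1, and that in ubl-1 was in its 3′ UTR beside a snoRNA gene. No gene of the lists of translation factors (42 genes), vacuolar ATPase subunits (22) or proteasome subunits (33) had a ceiling region, beside 1.29% of all genes. An IDR region was in the promoter of 5, 5 and 0 of them, beside 2.59% of all genes. In lists of this size neither count was tested.

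Among the lists of transcription factors, 2 of 15 forkhead (13.3%), 2 of 27 bZIP (7.41%) and 2 of 35 bHLH genes (5.71%) had a ceiling region in the promoter or body. So did 8 of 273 nuclear hormone receptor genes (2.93%) and 2 of 100 homeobox genes (2.0%). The share of all genes was 1.29%, and no difference from it was tested. The forkhead gene pha-4, the pharyngeal organ selector, had a region 233 bp upstream with signals of 30.1 in replicate 1 and 44.8 in replicate 2, at ranks 2332 and 1559. The MAD-like bHLH gene mdl-1 had signals of 46.3 and 32.3 (ranks 496 and 4137), and its summit window held CACGTG. The PBX-type homeobox gene ceh-60 had signals of 30.2 and 45.0, 647 bp upstream of its 5′ end on X. Of 273 nuclear hormone receptor genes, 3 had promoter regions: nhr-178 (ranks 12517 and 1015), nhr-105 (6536 and 1145) and nhr-47. A further 5 of the 273 had one in the body only (nhr-17, nhr-35, nhr-70, nhr-71 and nhr-173). By list these were 1 of 15 forkhead, 1 of 35 bHLH and 1 of 100 homeobox promoters, and 0 of 27 bZIP promoters. Of all genes, 0.601% had a ceiling region in the promoter. The zinc-finger chromatin factor gene mep-1 had signals of 29.0 and 53.6, 228 bp upstream.

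Some listed factors had ceiling regions in the gene body and none in the promoter, and the 4 given here come from different lists. The FoxO gene daf-16 had one in an intron, 2658 bp from the nearest 5′ end and 749 bp from an IDR region, with signals of 33.1 in replicate 1 and 53.0 in replicate 2 (ranks 1626 and 932), and its window held TGATAA. The Nrf-type gene skn-1 had 2 in introns. The first had signals of 28.9 in replicate 1 and 49.4 in replicate 2. The second, with 21.5 and 61.6, also lay within the C-type lectin gene clec-178, 459 bp from its 5′ end, which is the nearest, so it cannot be assigned to skn-1 alone. The bZIP gene atf-7 had one in an intron (ranks 6380 and 841). The TFEB orthologue hlh-30 had one in an intron 10674 bp downstream of its nearest 5′ end (ranks 4313 and 1051). The autophagy and lysosome list had 3 of 46 genes in all (6.52%), hlh-30, epg-9 and the cathepsin L gene cpl-1 (ranks 645 and 1652), beside 1.29% of all genes. An IDR region was in 8 of 46 promoters (17.4%), beside 2.59% of all genes.

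For immune, detoxification and tissue lists the counts are given beside the 0.601% of all genes with a ceiling summit in the promoter. Counts for promoter or body stand beside 1.29% of all genes, and those of promoters with an IDR region beside 2.59%. No difference from these shares was tested. The DAF-16-regulated gene dod-6 was 1 of 105 in the list of stress kinases and immunity, with a region 621 bp upstream at ranks 3237 and 1013. C-type lectins had 2 of 237 promoters (clec-265 and clec-42), detoxification genes 2 of 229 (mrp-3 and ugt-54), cuticle and hypodermis genes 2 of 205 (col-63 and wrt-1), body-wall muscle genes 1 of 37 (unc-60) and neuropeptides 1 of 147 (nlp-40). The mitochondrial list had 1 of 118 promoters, the citrate synthase gene cts-1, with signals of 46.1 in replicate 1 and 40.6 in replicate 2 (ranks 513 and 2086), beside 9 of 118 promoters with an IDR region. Chemoreceptors, the largest list, had 2 of 1306 promoters (srh-282 and srj-29). The lists of neuronal (48 genes), germline (46), GATA factor (12), ETS factor (9), T-box (19), histone (59), Argonaute (31) and iron (21) genes had no ceiling region in a promoter or body. The yolk list (vit-1) had 1 of 6 promoters and the pharynx list (pha-4) 1 of 21. No promoter had one in the lists of ETS-4 pathway (15 genes), insulin (56), TGF-beta, Wnt, Notch and Ras signalling (48) or sperm genes (86), where daf-16, daf-3, cam-1 and spe-41 had one in the body. Intestinal genes had none in 26 promoters and 1 in a body, that of erm-1 (3.85%, beside 1.29% of all genes). An IDR region was in 5 of 26 promoters (19.2%), beside 2.59% of all genes. These lists name genes by function, not cells, and the counts are not evidence of where binding took place.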

How the data were processed

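The 4 deposited region lists, in narrowPeak format on ce11, were taken without change. The pooled list holds peaks and background by its name. Text notes deposited with them derive each replicate's list from its own alignments plus a control, and the pooled and IDR lists from the 2 replicates together. The signal value and the -log10 q value (column 9) are the authors' own and were not scaled between lists. The summit offset, a position of another kind, was deposited by the authors too. Not given in the sources used here are the aligner, peak caller, IDR threshold and read depth, so the precision of each signal is unknown.

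The members and all gene lists were chosen with earlier results of these data known. Named regions were the 10 with the highest pooled signal, the 10 with the best worse rank, the 5 most uneven in each direction, and up to 6 per gene list; a name in a group of 5 or fewer was given also where it fell outside this. Summits were compared with Ensembl 115 annotation and RefSeq sequence of WBcel235. The symbol opt-2 had no match. Shares had two-sided Fisher's exact tests and words at summits exact McNemar tests, with Benjamini-Hochberg adjustment within each family (threshold 0.05), on regions, not samples. In simulated data of 291 regions, the share test found the planted difference in 50 of 50 runs with 3 of 350 false calls, and the word test in 10 of 10 with 0 of 70. The planted difference was about as large as that of exons here, and the planted word about as frequent as TGATAA. Regions were drawn independently, on random sequence for the word test. The runs therefore do not show how often smaller differences are found, or what dependence between neighbouring regions does. With 1 group, no contrast between conditions was possible. Tests used scipy 1.17.1 under Python 3.11.15, tables pandas 2.3.3 and numpy 2.4.6, and plots matplotlib 3.10.9.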

Additional observations from a re-analysis of the deposited data

How the results depend on the processing

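Of 236 alternative values of the tests, 214 kept their side of the threshold, 13 passed only in the alternative, 7 no longer passed and 2 turned round and passed. In 46 of the 236 the difference changed sign without a call, so the direction of differences that did not pass was often unstable. Causes were not tested. The exon difference from the IDR regions passed in all 7 alternatives (6.21 to 14.7 points). Against all other pooled regions below the ceiling, in place of the 291 nearest, the differences were 10.4 points for promoters and 5.09 for GAGAGA (both turned round), -14.8 for exons, 5.99 for intergenic summits, 9.83 for small RNA genes, 3.19 for IDR regions nearby and 13.7 for TGATAA. A promoter of 500 bp upstream to 100 bp downstream gave -8.86 points against the IDR regions and 11 points for intergenic summits against those below the ceiling. GAGAGA against the IDR regions lost its call at region centres (-7.58), above the median signal (-8.31), with 25 bp to each side (-3.53) and without regions near an IDR region (-7.81), and against the flank with the other side (4.12) or 500 bp away (6.19). CACGTG passed against the flank with 100 bp to each side (4.81).

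Leaving out each replicate (ranks 1103 to 1393 of the other's own list) gave ranges of -8.93 to -2.41 points for exons and -6.53 to -2.75 for IDR regions nearby, both against regions below the ceiling, and both passed without replicate 1. Against the IDR ranks it gave -9.03 to -4.54 for TGATAA, -6.90 to -2.62 for GAGAGA, -8.31 to -2.64 for intergenic summits and -0.421 to 3.34 for CCGGAT. The TGATAA difference passed without replicate 1, intergenic summits and CCGGAT without replicate 2, and GAGAGA lost its call without replicate 1. The 120 genes became 74 with the narrower promoter, 194 with 2000 bp upstream to 500 bp downstream and 286 by nearest 5′ end. Regions in both replicates' strongest fell to 4 without those whose replicate region also overlaps an IDR region, an alternative chosen after seeing the data. No paired analysis was possible because there was 1 group.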
